A study of Mus musculus with 3 samples.

Results

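The NMDA receptor subunits are the 7 genes Grin1, Grin2a, Grin2b, Grin2c, Grin2d, Grin3a and Grin3b. They were taken by gene symbol from a table of transcript levels, and each of the 7 held 1 row among 33101 gene names with a value. The tissue was dentate gyrus, the part of the hippocampus that receives the perforant path, micro-dissected from both hemispheres of adult male mice aged 8 to 10 weeks. The libraries are titled WT, and the mice were of strain C57Black6 (C57BL/6 background) with no treatment named in the labels. Poly(A) RNA was sequenced in 3 libraries labelled as biological replicates of this 1 group, WT, and no second condition was included. The labels do not say whether a library pooled several animals.

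The authors' table gives each gene a single FPKM for the 3 libraries together. FPKM is a fragment count scaled by transcript length and by the total of mapped fragments, so levels of different genes can be set side by side per length. There was no value per library, and therefore no replicate error, no test and no known depth behind any value. All comparisons below are between genes within this tissue and are descriptions. In such bulk RNA, fewer cells of a type and less RNA per cell cannot be told apart. A gene with the value 0 is said to be listed at 0, because the quantification can write 0 where an estimate failed.

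NMDA receptors are glutamate-gated cation channels that pass calcium and are blocked by magnesium at resting membrane potential, which lets them act as detectors of coincident synaptic input. In dentate granule cells they are known for their part in long-term potentiation of the perforant path. A receptor is a tetramer: Grin1 encodes the obligatory subunit, which binds the co-agonist glycine or D-serine, the Grin2 genes encode the glutamate-binding subunits that set kinetics and magnesium block, and the Grin3 genes encode glycine-binding subunits that lower calcium flow and magnesium sensitivity.

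The coding sequences of the forms that the table lists, taken from GENCODE M21, show how closely the members are related. Among 21 pairs, identity in a joint alignment ran between 43.0% for Grin1 with Grin3a and 64.9% for Grin2c with Grin2d. Grin2a and Grin2b had 64.2% of 4221 aligned bases in common, and Grin3a and Grin3b had 58.1% of 2863. Exact runs were short. The longest run that listed transcripts of 2 members shared was 34 bases, and the median over the 21 pairs was 14 bases. No stretch of 50 bases was therefore common to any pair of members.

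Of the 7 subunit genes, 5 were at 1 FPKM or more and 2 at 10 FPKM or more. Among all protein-coding names in the table, 56.3% were at 1 FPKM or more and 30.8% at 10 FPKM or more, and with 7 genes these counts are not read as different from that background (for all names, 39.6% and 21.1%). In order of deposited value, Grin2a stood first, followed by Grin2c, Grin2b, Grin3a, Grin2d and Grin3b, and Grin1 was listed at 0. The median over the 7, with Grin1 counted at 0, was 6.15 FPKM, against 2.45 FPKM over 20126 protein-coding names. Over protein-coding names at 1 FPKM or more the median was 11.5 FPKM, and 2 of the 7 members lay above it. With no value per library, it cannot be said which neighbours in this order differ beyond their spread.

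**Figure D1:**
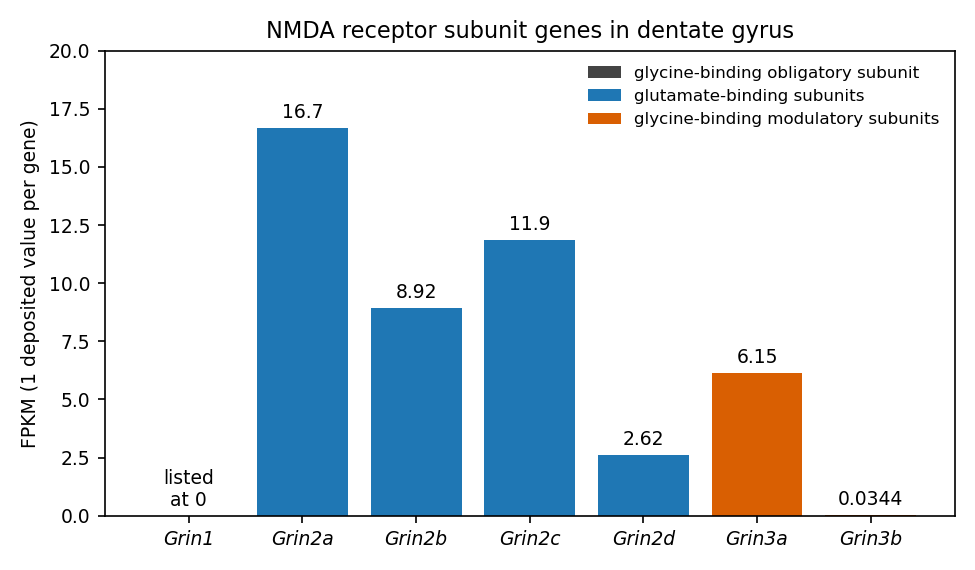
Deposited FPKM (vertical axis) of the 7 NMDA receptor subunit genes in wild-type dentate gyrus, 1 bar per gene with no error bar because the table holds 1 value per gene. Grin2a is tallest at 16.7 FPKM, Grin3b is at 0.0344 FPKM and Grin1 is listed at 0.

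Grin1, the gene of the obligatory subunit, was listed at 0. Its row carried the identifier ENSMUSG00000026959 and the transcript ENSMUST00000114312, on the minus strand of chromosome 2 at 25146701 to 25174707 (mm9). Since functional receptors need this subunit, the value was set beside other zeros in the same table. Of 20126 protein-coding names, 4872 (24.2%) were listed at 0. Genes chosen after their values were seen show that the table also holds zeros for genes that all cells use. Such picked genes do not show how often a zero is a failed estimate. Rpn2, a subunit of the complex that attaches sugars to new proteins, was listed at 0, whereas its partner Rpn1 was at 30.2 FPKM. Naa50, an N-terminal acetyltransferase subunit, was listed at 0, whereas its partner Naa10 was at 38.2 FPKM. Fkbp1a, an abundant immunophilin that binds calcium release channels, and Lonp1, the mitochondrial matrix protease, were also listed at 0. So was the neuronal RNA-binding protein gene Elavl4, whose relative Elavl3 was at 33.1 FPKM. The zero of Grin1 is therefore not read here as absence of the transcript, and no ratio to Grin1 is given.

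The form listed for Grin1 is 1 of 8 protein-coding forms in GENCODE M21, 3838 bases long with 19 exons and 2655 coding bases. The longest coding sequence among the 8 is 2877 bases. The forms differ in several places, among them the 2 alternative cassettes printed here, each of which is in 4 of the 8 forms and absent from the listed one. The 63-base exon (GRCm38, chromosome 2, 25311343 to 25311405) encodes the extracellular N1 cassette, known to lower inhibition of the receptor by protons. The 111-base exon (GRCm38, chromosome 2, 25294438 to 25294548) encodes the C1 cassette of the intracellular tail, which carries phosphorylation sites and an endoplasmic reticulum retention signal.
N1 cassette: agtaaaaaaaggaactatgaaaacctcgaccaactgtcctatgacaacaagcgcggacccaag
C1 cassette: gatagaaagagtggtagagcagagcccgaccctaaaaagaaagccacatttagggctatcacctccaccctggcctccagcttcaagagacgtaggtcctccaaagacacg
The sources used here do not give whether the zero belongs to this form or to the whole gene.

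At the Grin1 locus the table holds an antisense gene, E130003G02Rik, on the plus strand at 25146740 to 25154445 (mm9). It overlaps the span of Grin1 over 7706 bases and was also listed at 0. Of the 50-base stretches of the listed Grin1 transcript, 21.8% (826 of 3789) occur on the opposite strand in transcripts of this antisense gene, named Grin1os in GENCODE M21. The protocol names no step that keeps the strand, so reads of this shared stretch cannot be assigned. Lrrc26 abuts the 3' end of Grin1, at 25146700 (mm9), and was at 0.978 FPKM. Among neighbours farther away, Tmem210 was at 0.0192 FPKM and AA543186 at 0.237 FPKM. Ssna1 was at 40.5 FPKM, Anapc2, a subunit of the anaphase-promoting complex, at 29.4 FPKM and Man1b1, a mannosidase of the endoplasmic reticulum, at 18.6 FPKM. The part of the overlap in the zero was not tested.

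Grin2a, whose subunit gives fast-decaying currents and is known to become prominent in mature forebrain, had the highest deposited value of the members, 16.7 FPKM. It lay above 78.6% of protein-coding names. Its row spanned 9577803 to 9995014 on the minus strand of chromosome 16 (mm9, 417 kb), with no other row overlapping. The listed transcript, ENSMUST00000115835, has 5023 bases and the full coding length of 4392 bases, but the longest coding form in GENCODE M21 has 14634 bases. Of its 50-base stretches, 41.7% (2076 of 4974) also occur in the processed pseudogene Gm7328, and fragments from these stretches match both. The sources used here do not give how such fragments were counted, and the level of Gm7328 was not analysed here.

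Grin2b, whose subunit gives slow-decaying currents, binds CaMKII tightly and is known to dominate before maturity, was at 8.92 FPKM, above 67.3% of protein-coding names. The level of Grin2a was 1.87 times that of Grin2b as a ratio of the deposited values. The listed transcript of Grin2b, ENSMUST00000111905, spanned 135679844 to 136123529 on the minus strand of chromosome 6 (mm9, 444 kb) and has 7484 bases, against 24060 bases for the longest coding form. It holds the full coding length of 4446 bases. All 4 rows that overlap it lie on the opposite strand, 3 of them listed at 0 and the fourth, Gm17614, at 0.653 FPKM. For both Grin2a and Grin2b, the length by which the value was divided is thus uncertain, as the listed form is under 0.5 of the longest form. The longest forms are from GENCODE M21, on a later build than the values. Whether those forms were in the annotation behind the values was not tested. Of the 50-base stretches of the listed Grin2b transcript, 1.26% occur on the opposite strand in Gm14329 and 0.525% in Gm22892.

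Grin2c stood second at 11.9 FPKM, above 72.4% of protein-coding names. Its subunit confers weak magnesium block and is best known from mature cerebellar granule cells, and its transcript is also known in astrocytes. The row spanned 115110483 to 115128557 on the minus strand of chromosome 11 (mm9, 18.1 kb), and the listed transcript, ENSMUST00000106554, is the longest form at 4895 bases. The 1 overlapping row, AL603828.1 on the opposite strand, was listed at 0. The level of Grin2c was 1.33 times that of Grin2b, and Grin2a was 1.41 times Grin2c. With each value rescaled to the longest coding form, an alternative chosen after seeing the data, the ratio of Grin2a to Grin2c was 0.483. That of Grin2c to Grin2b was 4.27. The rescaling adds no fragments and can only lower Grin2a and Grin2b relative to Grin2c. The turned order of Grin2a and Grin2c therefore follows from the lengths and is not a test of that order. Of the 50-base stretches of the listed Grin2c transcript, 0.908% occur on the opposite strand in Gm25837. There is no replicate error to set these ratios against.

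Grin2d, whose subunit gives very slowly decaying currents and is known in forebrain mostly from interneurons, was lowest of the Grin2 genes at 2.62 FPKM. It lay above 50.7% of protein-coding names, near their median. Its row spanned 53087253 to 53122499 on the minus strand of chromosome 7 (mm9, 35.2 kb), with the listed transcript ENSMUST00000002848 of 5431 bases. Relative to Grin2d, Grin2a was 6.36 times as high, Grin2c 4.52 times and Grin2b 3.40 times. With the rescaling to the longest coding form, the ratios were 2.18 for Grin2a and 1.06 for Grin2b. Of its 50-base stretches, 9.29% occur on the opposite strand in Gm45441, an antisense gene of GENCODE M21.

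As shares of the summed Grin2 level of 40.1 FPKM, Grin2a made up 41.6%, Grin2c 29.6%, Grin2b 22.3% and Grin2d 6.54%. These are shares of the deposited levels per length, not of receptors, and they carry the uncertain lengths of Grin2a and Grin2b.

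Grin3a, whose subunit limits calcium entry and spine maturation, was at 6.15 FPKM, above 60.9% of protein-coding names. It was 0.690 times Grin2b, and 2.20 times with both rescaled to the longest coding form. The row spanned 49674483 to 49858421 on the minus strand of chromosome 4 (mm9, 184 kb), and no 50-base stretch of its listed transcript, ENSMUST00000076674, was found in another gene. Ppp3r2, the testis form of the calcineurin regulatory subunit, lies within this span on the same strand and was at 0.0589 FPKM.

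Grin3b, known mainly from motor neurons of brainstem and spinal cord, was at 0.0344 FPKM. Only Grin1 had a lower value among the members, and 29.7% of protein-coding names lay below Grin3b. The ratio of Grin3a to Grin3b was 179, and with a pseudocount of 1 FPKM it was 6.92. The size of this ratio rests on a denominator near 0. Grin3b spanned 79433460 to 79439935 on the plus strand of chromosome 10 (mm9, 6.48 kb) with the listed transcript ENSMUST00000045085. The row of the gene listed as ORF61 (Tmem259 in GENCODE M21), at 49.1 FPKM, overlaps its 3' part over 2243 bases on the opposite strand. Of the 50-base stretches of the Grin3b transcript, 23.6% (763 of 3234) occur on the opposite strand in transcripts of that gene. The Grin3 genes together summed to 6.19 FPKM, which was 15.4% of the Grin2 sum.

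**Figure D2:**
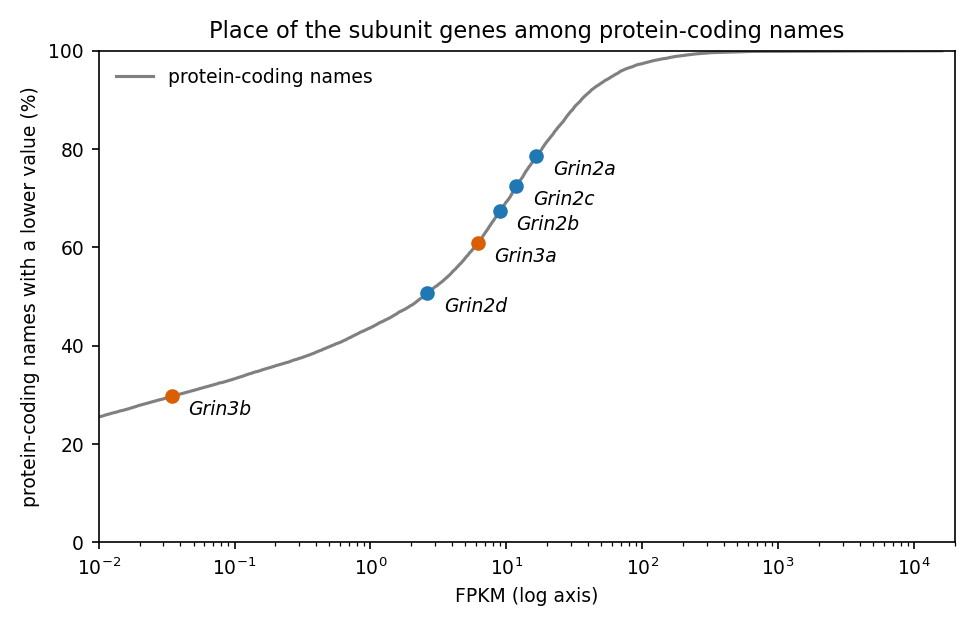
Share of protein-coding names with a lower value (vertical axis, %) against FPKM (horizontal log axis), with the 6 subunit genes above 0 as points on the curve of all protein-coding names. Grin2a lies above 78.6% of names and Grin3b above 29.7%; Grin1, listed at 0, is not drawn.

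Promoter windows were available for 4 of the 7 members, Grin1, Grin2c, Grin2d and Grin3b, as RefSeq sequence of build GRCm38.p6 from 250 bases before to 50 bases after the transcript start. The series belongs to a study of DNA methylation, and the windows are shown for their CG dinucleotides, which are in capitals. Grin1 is printed as the gene listed at 0 (chr2:25319138-25319437, minus strand), Grin2c as the highest of the 4 (chr11:115267194-115267493, minus strand) and Grin3b as the lowest above 0 (chr10:79970474-79970773, plus strand).
Grin1: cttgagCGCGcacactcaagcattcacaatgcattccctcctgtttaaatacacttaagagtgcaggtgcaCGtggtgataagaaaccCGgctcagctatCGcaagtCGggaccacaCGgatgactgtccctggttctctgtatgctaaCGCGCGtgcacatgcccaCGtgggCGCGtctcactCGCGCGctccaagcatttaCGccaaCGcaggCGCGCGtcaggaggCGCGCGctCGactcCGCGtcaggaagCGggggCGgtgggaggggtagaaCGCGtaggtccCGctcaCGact
Grin2c: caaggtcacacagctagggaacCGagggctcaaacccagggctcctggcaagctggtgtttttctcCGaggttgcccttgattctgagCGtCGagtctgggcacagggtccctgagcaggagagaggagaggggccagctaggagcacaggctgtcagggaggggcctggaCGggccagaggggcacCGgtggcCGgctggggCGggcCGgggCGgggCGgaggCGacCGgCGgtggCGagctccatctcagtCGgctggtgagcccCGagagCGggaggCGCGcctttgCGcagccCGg
Grin3b: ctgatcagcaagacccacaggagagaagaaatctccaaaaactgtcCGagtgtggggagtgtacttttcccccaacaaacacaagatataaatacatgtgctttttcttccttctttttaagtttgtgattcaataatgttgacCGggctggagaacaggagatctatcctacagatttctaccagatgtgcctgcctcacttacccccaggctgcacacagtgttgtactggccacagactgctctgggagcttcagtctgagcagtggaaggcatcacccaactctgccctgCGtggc

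The window of Grin1 held 33 CG dinucleotides, more than 86.1% of 14052 protein-coding names with a window. Grin2c held 22, Grin2d 12 and Grin3b 3. The start used by RefSeq was the start of the listed transcript for Grin1 and Grin2c, lay 9 bases inside it for Grin3b and 448 bases inside it for Grin2d. The letters GGGCGG, searched on both strands as GGGCGG and CCGCCC, occurred 1 time in the Grin1 window and, counting overlapping matches, 3 times in that of Grin2c. They were in neither of the other windows, and 35.7% of all 32851 windows held at least 1. A match of letters is not evidence of binding.

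Across protein-coding names, level went with promoter CG content. Of 7665 names with 15 or more CG, 82.3% were at 1 FPKM or more and 4.49% were listed at 0. Of 3241 names with under 5 CG, 9.63% were at 1 FPKM or more and 70.5% were listed at 0. Grin2c was at 1 FPKM or more, like the majority of its class. Grin3b was under 1 FPKM, like the majority of its class, but was not listed at 0. Grin1 was 1 of 344 names of the CG-rich class that were listed at 0. Grin2d fell in the class of 5 to 14 CG, of which 48.0% were at 1 FPKM or more. Its window (45866632 to 45866931) lies wholly downstream of the start of the listed transcript (45867129, minus strand). The class of Grin2d is thus that of the RefSeq start, not of the listed form. For a gene with several windows the one with the most CG was used; with the fewest, the share at 1 FPKM or more in the class under 5 CG was 20.3%.

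**Figure D3:**
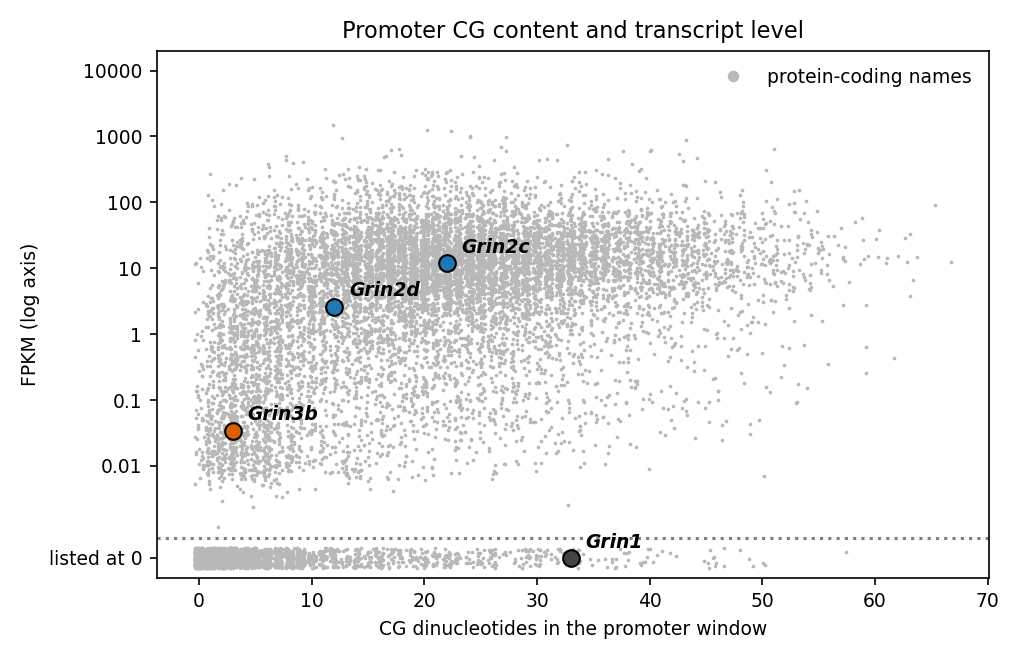
FPKM (vertical log axis, with names listed at 0 in a band below the dotted line) against the number of CG dinucleotides in the promoter window (horizontal axis, points spread sideways within each number), grey for 14052 protein-coding names and coloured for 4 subunit genes. Grin1, with 33 CG, lies in the band at 0, where few CG-rich names lie.

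The other ionotropic glutamate receptor genes are set beside the NMDA receptor subunit genes here. Among 18 such genes, 16 were at 1 FPKM or more and 1, Grin1, was listed at 0. Over protein-coding names, 56.3% were at 1 FPKM or more and 24.2% were listed at 0. The Grin2 genes summed to 40.1 FPKM, which was 10.9% of the 367 FPKM over the 4 genes of AMPA receptors, which carry fast transmission. The Grin2 sum leaves out Grin1 and carries the uncertain lengths of Grin2a and Grin2b. Lengths of the AMPA receptor forms are not given here, so the share is not one of receptors. Gria1 was at 249 FPKM and Gria2, whose subunit makes the AMPA receptor impermeable to calcium, at 87.8 FPKM. The median was 6.15 FPKM over the NMDA receptor genes, against 56.8 FPKM over AMPA and 14.8 FPKM over kainate receptor genes. With Grin1, listed at 0, left out, the median over the NMDA receptor genes was 7.54 FPKM. Grik5, a high-affinity kainate subunit, was at 59.4 FPKM, above every NMDA receptor gene with a value above 0. Grik1, another kainate subunit gene, was at 1.66 FPKM, below every Grin2 gene. No replicate test of these differences was possible.

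Proteins that anchor or move the receptor were represented by 15 genes with a median of 22.8 FPKM. All 15 reached 1 FPKM, and 10 reached 10 FPKM, against 56.3% and 30.8% of protein-coding names. Dlg4, which encodes the postsynaptic scaffold PSD-95 that binds the tails of Grin2 subunits, was highest at 315 FPKM. It was followed by the neurofilament gene Nefl at 152 FPKM and by Dlg3, which encodes SAP102, at 80.4 FPKM. The lowest were the kinase anchors Akap9, known as yotiao, which binds Grin1, at 5.06 FPKM and Akap5 at 1.00 FPKM.

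Kinases and phosphatases that act on the subunits were higher still. All 20 genes were at 1 FPKM or more, 19 were at 10 FPKM or more, and the median was 55.0 FPKM. The shares of protein-coding names at these levels were 56.3% and 30.8%. Camk2a and Camk2b, whose products form the CaMKII holoenzyme that docks on the Grin2b tail, were at 1205 and 635 FPKM. Ppp3ca, the calcineurin catalytic subunit, was at 546 FPKM. Csnk2a2, a catalytic subunit of the casein kinase that phosphorylates the PDZ ligand of Grin2b, was at 11.9 FPKM, and Camk2d was lowest at 4.12 FPKM.

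Genes for the co-agonists of the receptor were nearer to the subunits in level. Their median was 11.6 FPKM. Of 13 genes, 10 reached 1 FPKM and 7 reached 10 FPKM, against 56.3% and 30.8% of protein-coding names. Psat1, an enzyme of serine synthesis, was at 48.98 FPKM, Srr, the serine racemase that makes D-serine, at 48.7 FPKM and Psph, the last enzyme of L-serine synthesis, at 15.7 FPKM. Dao, which degrades D-serine, was listed at 0. The glycine transporter gene Slc6a5 of brainstem and spinal cord was at 0.0152 FPKM.

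Calcium effectors downstream of the receptor had the highest median of the 6 related lists, 109 FPKM over 12 genes. Of these, 11 were at 1 FPKM or more, against 56.3% of protein-coding names. Calm2 and Calm3, which encode calmodulin, a calcium sensor that binds the tail of the Grin1 subunit, were at 674 and 475 FPKM. Camk4, a nuclear calcium-dependent kinase, was at 4.31 FPKM, and Creb1, the transcription factor that it phosphorylates, was lowest at 0.730 FPKM.

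Surface proteins known to modulate the receptor had a median of 10.7 FPKM over 9 genes. Of these, 8 were at 1 FPKM or more, against 56.3% of protein-coding names. The metabotropic receptor gene Grm5 was highest at 35.2 FPKM, and the reelin receptor gene Vldlr was at 12.8 FPKM. The lowest were Efnb2, a ligand of Eph receptors, at 7.33 FPKM and Reln at 0.880 FPKM.

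**Figure D4:**
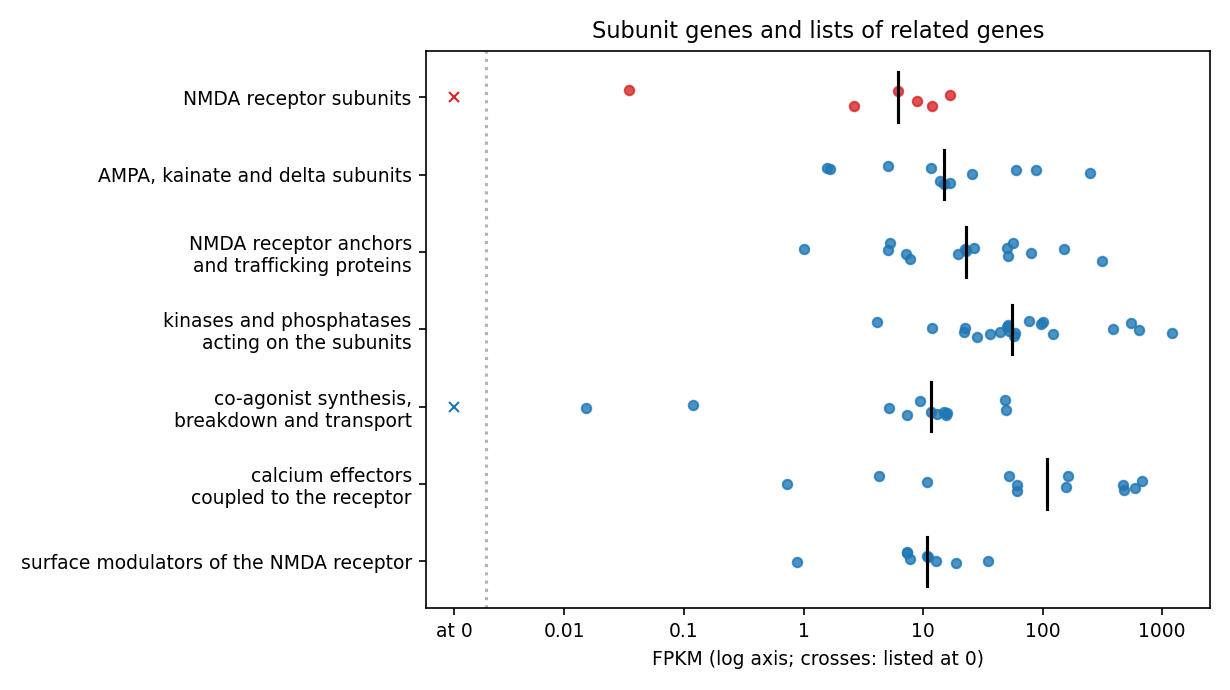
FPKM (horizontal log axis) of the 7 NMDA receptor subunit genes in red and of 6 lists of related genes in blue, 1 point per gene, with a vertical bar at each list's median and crosses at the left for genes listed at 0. The subunit genes have a median of 6.15 FPKM with Grin1 counted at 0. The medians of the other lists run between 10.7 and 109 FPKM.

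Cell type markers were set beside the members because several subunits are known from particular cells. All 5 dentate granule cell markers reached 10 FPKM, as did 30.8% of protein-coding names. Their median was 77.4 FPKM, with a range between 43.3 FPKM for the desmosomal gene Dsp and 111 FPKM for C1ql2. Pyramidal cell markers of CA1 and CA3 had a median of 8.81 FPKM, with Cpne4 at 39.5 FPKM and Pou3f1 listed at 0.

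Markers of cerebellar granule cells, the best known site of Grin2c, had a summed level of 0.0647 FPKM over 4 genes, with Fat2 listed at 0 and Cbln3 highest at 0.0594 FPKM. All 6 astrocyte markers reached 10 FPKM, as did 30.8% of protein-coding names. Their median was 140 FPKM, with levels between 26.3 FPKM for Aldh1l1 and 267 FPKM for the glutamate transporter gene Slc1a2. Which cells carried Grin2c was not tested. The 8 interneuron markers had a median of 11.1 FPKM, and 7 of them reached 1 FPKM, as did 56.3% of protein-coding names. The somatostatin gene Sst was at 109 FPKM and the transcription factor gene Lhx6 at 0.444 FPKM, and which cells carried Grin2d was not tested.

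Markers of motor neurons, the best known site of Grin3b, had a summed level of 0.0928 FPKM over 4 genes. Slc5a7, the choline transporter gene, held all of it, and the other 3, Isl1 among them, were listed at 0. Thalamic markers were between 0.0358 FPKM for Gbx2 and 9.69 FPKM for Ntng1. Other cells of the tissue were also represented. Mbp and Cspg4 of the oligodendrocyte lineage were at 261 and 2.56 FPKM, C1qb and Aif1 of microglia at 38.9 and 3.51 FPKM, and Cldn5 of endothelium at 7.96 FPKM, with Pecam1 listed at 0.

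**Figure D5:**
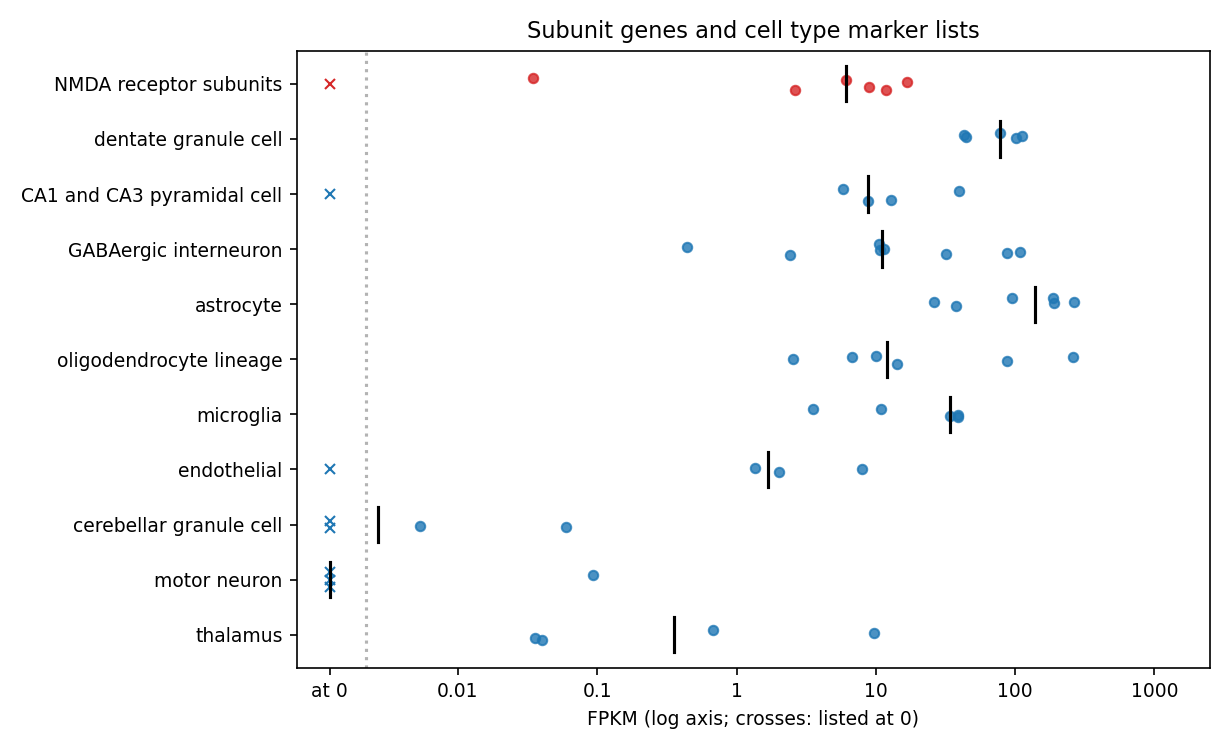
FPKM (horizontal log axis) of the 7 NMDA receptor subunit genes in red and of 10 cell type marker lists in blue, 1 point per gene, with a vertical bar at each list's median and crosses at the left for genes listed at 0. Granule cell and astrocyte markers lie above every subunit gene with a value above 0. Cerebellar granule cell and motor neuron markers lie under 0.1 FPKM.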

How the data were processed

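Poly(A) RNA of micro-dissected dentate gyrus was fragmented, reverse transcribed from random primers and read on a HiSeq2000 instrument, per the labels' protocols. TopHat and Cufflinks and the builds mm9 and NCBIM37 are named in the submitters' processing notes. The sources used here do not give versions, read length or whether and how the 3 libraries were combined. The authors deposited 1 column of FPKM values with 37681 rows, each an Ensembl gene with 1 listed transcript, of which 36469 hold a value. Depth is unknown, so no interval or detection limit is given.

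Rows that share a symbol were summed (311 names; none is a subunit gene). All 7 members were found. Members and lists were chosen with earlier results of these data known. The text names all members, the 3 highest, the 2 lowest and any zero member of each of 6 related lists, and the highest and lowest of each of 10 marker lists; other named genes are marked or are neighbours. No likeness between patterns was computed, since there is 1 value per gene. List symbols absent from the table were matched by Ensembl identifier. Some genes that this rule names, and some sequences, are not reported here.

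Gene types, transcript forms and sequences came from GENCODE M21 (GRCm38) by identifier, found for 86.7% of rows; table positions are mm9, made 1-based. Coding sequences were aligned with MAFFT 7.526. Promoter windows came from RefSeq (GRCm38.p6), matched by symbol. Ratios carry no pseudocount. The planned limma comparisons within libraries and the leave-out settings could not be made without values per library. The ranking, summing and run-finding steps were tested on simulated data with known answers. Scripts used pandas 2.3.3, numpy 2.4.6 and matplotlib 3.10.9 under Python 3.11.15.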

Additional observations from a re-analysis of the deposited data

How the results depend on the processing

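No paired analysis was possible because there is 1 group and 1 value column, and leaving out replicates could not be run for the same reason. Keeping the highest row for a shared symbol changed no subunit level or Grin2 share. Pseudocounts cannot turn the direction of a ratio, and the length assumed can. Rescaling to a longer length adds no fragments and can only lower a value, so a turn under it does not test the order. With values rescaled by the length of the listed form over that of the longest coding form, chosen after seeing the data, the ratio turned for Grin2a to Grin2c (0.483) and Grin3a to Grin2b (2.20). In the same setting it was 2.06 for Grin2a to Grin2b, 2.18 for Grin2a to Grin2d, 4.27 for Grin2c to Grin2b, 1.06 for Grin2b to Grin2d and 177 for Grin3a to Grin3b. With pseudocounts of 0.1 and 1 FPKM, the ratio of Grin2a was 1.86 and 1.78 to Grin2b, 1.40 and 1.37 to Grin2c, and 6.16 and 4.88 to Grin2d. The ratio of Grin2c to Grin2d was 4.39 and 3.55, of Grin2b to Grin2d 3.31 and 2.74, of Grin3a to Grin3b 46.5 and 6.92, and of Grin3a to Grin2b 0.693 and 0.721. Grin2c to Grin2b was 1.30 with a pseudocount of 1 FPKM. Leaving out Grin2a and Grin2b, whose listed forms are short, gave shares of 81.9% for Grin2c and 18.1% for Grin2d.

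Over all names, the share lying below was 85.2% for Grin2a, 81.1% for Grin2c, 77.6% for Grin2b, 73.3% for Grin3a, 66.1% for Grin2d and 46.8% for Grin3b. Over names at 0.1 FPKM or more it was 70.0%, 61.7%, 54.7%, 46.0% and 31.5% for the first 5 of these, and Grin3b falls under that minimum. Over protein-coding names it was 78.6%, 72.4%, 67.3%, 60.9%, 50.7% and 29.7%. The median of the co-agonist list was 12.4 FPKM without Dao, listed at 0, and 13.2 FPKM over members at 0.1 FPKM or more; the medians of the other 5 related lists did not change in these settings. In the same settings, added later for the remaining lists, the median of the subunit genes was 7.54 and 8.92 FPKM, that of the CA1 and CA3 markers 10.9 FPKM in both and that of the endothelial markers 2.02 FPKM in both. Without zeros the cerebellar and motor neuron marker medians were 0.0323 and 0.0928 FPKM, and at 0.1 FPKM or more the thalamic median was 5.18 FPKM. In an alternative chosen after seeing the data, the window with the fewest CG, the share of names at 1 FPKM or more was 82.4%, 53.4% and 20.3% in the classes from most to fewest CG.

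The limits are those of a single deposited value per gene, with no replicate error, unknown depth and an uncertain length for Grin2a and Grin2b. Every member but Grin3a shares 50-base stretches with other genes. The largest share, 41.7% for Grin2a, lies on the same strand in Gm7328, and most of the other genes lie on the opposite strand. Grin1 has a listed zero, in a table that also lists 0 for genes such as Rpn2.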
